A study of Homo sapiens with 3 samples.

Results

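Tight junctions seal the space between neighboring epithelial cells, and 9 genes that encode their proteins were followed in HCT-116 cells. The genes were 6 claudins (*CLDN1*, *CLDN2*, *CLDN3*, *CLDN4*, *CLDN7* and *CLDN12*), occludin (*OCLN*), the junctional adhesion molecule *F11R* and the scaffold *TJP1*. They were chosen by symbol, with earlier results of these data known, and each matched 1 of the 23131 rows of the deposited table. HCT-116 is an established human colon carcinoma line whose *APC* gene is wild-type and which carries *CTNNB1*ΔSer45, a β-catenin that resists degradation, so that WNT signaling is already active in every group. Of the 3 libraries of the RNA-seq experiment, 1 came from cells given a pool of anti-*APC* siRNA, 1 from cells given a pool of scrambled siRNA and 1 from cells that the labels call both untransfected and treated with reagent only. Cells were transfected on consecutive days and harvested 48 hours after the last transfection. The table gives levels for anti-*APC* and untransfected cells, and the scrambled library was not analysed here. The ratios of anti-*APC* to untransfected cells therefore do not separate silencing of *APC* from delivery of siRNA. Below, "after *APC* silencing" names the anti-*APC* library and not a cause.

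Claudins are small membrane proteins that polymerize into the strands of the tight junction and pair with claudins of the adjacent cell. Some tighten the barrier, whereas others, such as claudin 2, form paracellular channels for cations and water. Occludin and JAM-A, the product of *F11R*, lie in or beside the strands, and ZO-1, the product of *TJP1*, is a cytoplasmic scaffold whose PDZ domains bind the tails of most claudins and link the strands to actin. In the intestine these proteins set the permeability of the epithelium and mark the border between its apical and basolateral membranes.

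Promoter sequences are shown for *CLDN3*, *CLDN4* and *CLDN7*, which had the lowest ratios of the anti-*APC* to the untransfected library among the 6 claudins followed here. Each RefSeq window (GRCh38.p14) runs from 250 bases before a transcript start to 50 bases after it and is written 5′ to 3′ on the strand of the gene. Capitals mark 3 kinds of letters that were searched on both strands. The TCF letters were AACAAAG, the variant ATCAAAG, the variant TACAAAG and the variant TTCAAAG. The AP-1 letters were TGACTCA with its reverse complement TGAGTCA. The E-box letters, which SNAI and ZEB repressors are known to bind, were CAGGTG with its reverse complement CACCTG. For *CLDN7*, RefSeq gives 2 starts, and the window with matches is shown. The windows are chr7:73770221-73770520 (minus strand) for *CLDN3*, chr7:73830746-73831045 (plus strand) for *CLDN4* and chr17:7262429-7262728 (minus strand) for *CLDN7*.
CLDN3: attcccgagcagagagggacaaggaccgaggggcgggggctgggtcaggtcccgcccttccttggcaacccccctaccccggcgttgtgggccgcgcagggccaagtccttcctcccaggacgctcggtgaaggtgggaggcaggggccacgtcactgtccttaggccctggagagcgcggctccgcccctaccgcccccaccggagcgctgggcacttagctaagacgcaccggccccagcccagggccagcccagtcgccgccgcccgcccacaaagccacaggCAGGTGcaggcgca
CLDN4: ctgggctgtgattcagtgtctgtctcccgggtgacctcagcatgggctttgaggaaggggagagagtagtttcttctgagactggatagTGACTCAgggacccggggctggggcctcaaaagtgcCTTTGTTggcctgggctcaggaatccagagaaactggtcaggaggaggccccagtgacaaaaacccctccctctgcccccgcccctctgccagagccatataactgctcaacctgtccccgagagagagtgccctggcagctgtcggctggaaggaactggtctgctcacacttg
CLDN7: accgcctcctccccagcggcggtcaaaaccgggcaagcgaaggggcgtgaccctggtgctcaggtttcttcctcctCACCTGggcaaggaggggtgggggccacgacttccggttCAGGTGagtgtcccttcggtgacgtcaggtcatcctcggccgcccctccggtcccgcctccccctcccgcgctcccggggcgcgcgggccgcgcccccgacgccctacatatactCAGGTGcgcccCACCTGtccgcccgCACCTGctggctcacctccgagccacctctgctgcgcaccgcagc

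The *CLDN4* window held 1 AP-1 match, which began 161 bases before the start, and 1 TCF match on the reverse strand (CTTTGTT), which began 125 bases before the start. It held no E-box letters. The *CLDN7* window held 5 E-box matches, which began 174, 135, 20 and 9 bases before the start and at the 6th base after it, and *CLDN3* held 1, which began at the 37th base after the start. Over all 35116 promoter windows of the same length, TCF letters were present in 13.8%, AP-1 letters in 4.95% and E-box letters in 20.6%. RefSeq windows were matched for 8 of the 9 genes, 14 windows in all. TCF letters occurred in 2 of them (*CLDN4* and 1 of 4 for *TJP1*), AP-1 letters in 1 (*CLDN4*) and E-box letters in 5 (*CLDN3*, *CLDN7*, both of *OCLN* and 1 of *TJP1*). *F11R* was not matched. A match of these letters is a description of the sequence and was not tested for binding.

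*APC* and *AXIN2*, a known target of WNT signaling, were examined first as a check on the labels. *APC* (chr5:112043215-112181936; coordinates of genes here and below are hg19) had 9.15 FPKM (fragments on each kilobase of a transcript, corrected for the number of mapped reads) in the untransfected library and 3.43 FPKM in the anti-*APC* library, which is 37.5% of the untransfected level. *AXIN2* (chr17:63524681-63557766), which β-catenin and TCF activate, had 4.11 FPKM and 28.7 FPKM respectively, a 7.0-fold higher level after *APC* silencing. Each condition has 1 library, so no test was possible and no spread between replicates is known for any value. Values of FPKM move in steps of whole reads at low levels, and the steps give 27700000 reads for the scaling of the untransfected library and 25300000 for that of the anti-*APC* library. Intervals given below are exact 95% intervals for counting error alone, and they leave out the variation between cultures. They use the reads that a gene would have on its shortest transcript with a CCDS (consensus coding sequence) identifier. Read numbers given below as "at least" are for that transcript, and a shorter one would give fewer. Reads without molecular identifiers are not independent molecules.

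The cells carried the epithelial RNA that the label implies. Of 7 epithelial markers, 5 had at least 1 FPKM in both libraries and 2 (*VIL1* and *CDX1*) were at or near 0. The highest value of any leukocyte marker was 0.182 FPKM and of any endothelial marker 0.10 FPKM, and of 5 fibroblast markers only *COL1A1* exceeded 1 FPKM (2.85 untransfected, 3.08 anti-*APC*).

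In untransfected cells *CLDN7* was the most abundant of the 9 transcripts at 70.2 FPKM, followed by *TJP1* at 57.6 FPKM, *CLDN4* at 44.4 FPKM and *F11R* at 38.2 FPKM. *CLDN12* with 11.7 FPKM and *OCLN* with 11.5 FPKM formed a middle pair, and *CLDN3* (2.40 FPKM), *CLDN2* (0.813 FPKM) and *CLDN1* (0.0334 FPKM) were low. The 9 genes thus spanned a 2099-fold range, and the 4 most abundant ranked between 1497 and 2789 of the 17081 rows above 0. Of the neighbors in this order, only *CLDN12* and *OCLN* did not differ beyond counting error (ratio 1.02, interval 0.935 to 1.12). In the anti-*APC* library the order of the upper 4 was *TJP1*, *CLDN7*, *F11R* and *CLDN4*. There the pair that did not differ beyond counting error was *CLDN3* and *CLDN2* (ratio 1.23, interval 0.781 to 1.98).

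**Figure D1:**
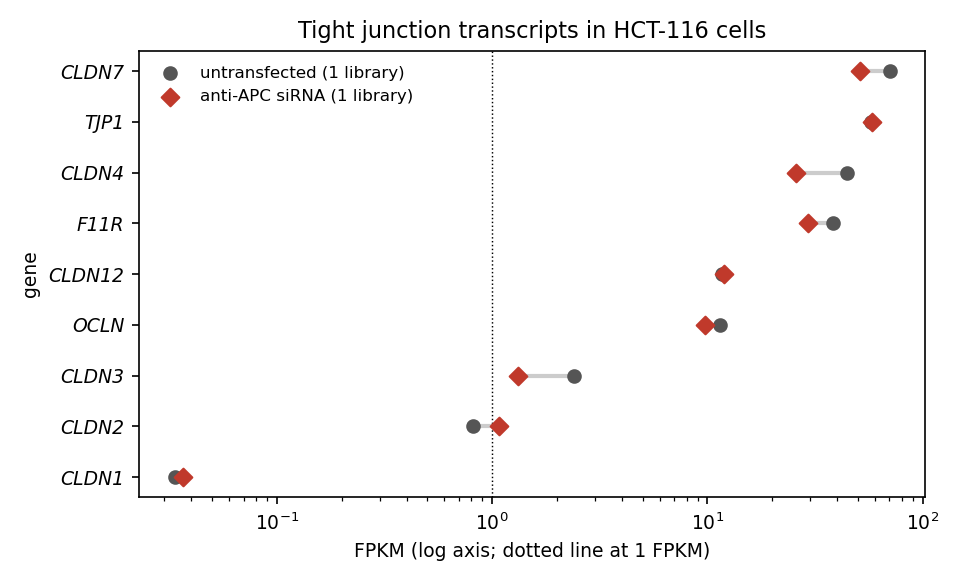
FPKM of the 9 genes (log axis) in the untransfected library (grey circles) and the anti-*APC* library (red diamonds), 1 library each, with a dotted line at 1 FPKM. *CLDN4* lay at 44.4 in untransfected cells and at 25.8 after *APC* silencing, whereas the symbols of *TJP1* (57.6 and 58.0) and *CLDN12* (11.7 and 11.9) nearly coincide.

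Of the 9 genes, 7 had at least 1 FPKM in both libraries. Among these 7, *CLDN3* and *CLDN4* were lower by 1.5-fold or more in the anti-*APC* library, and the other 5 lay within 1.5-fold. This is 28.6% of 7 genes. Of all 11815 genes that reached this minimum, 5.76% were lower and 2.29% were higher by 1.5-fold or more. None of the 7 was higher by that much. The median log2 ratio (anti-*APC* over untransfected) of the 7 genes was −0.38 and that of all 11815 genes was −0.05, with 5% of genes under −0.62 and 5% above 0.38. Counting intervals lay below 0 for 5 of the 9 genes (*CLDN3*, *CLDN4*, *CLDN7*, *F11R* and *OCLN*), held 0 for 4 and lay above 0 for 0. All 5 are among the 7 genes above the minimum. Of 9716 genes above it with a coding transcript that has a CCDS identifier, 32.9% had an interval below 0 and 21.6% one above 0. An interval that leaves out 0 was thus common in this comparison and does not set the 5 genes apart. In bulk RNA, fewer cells that express a gene and less RNA per cell cannot be told apart.

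**Figure D2:**
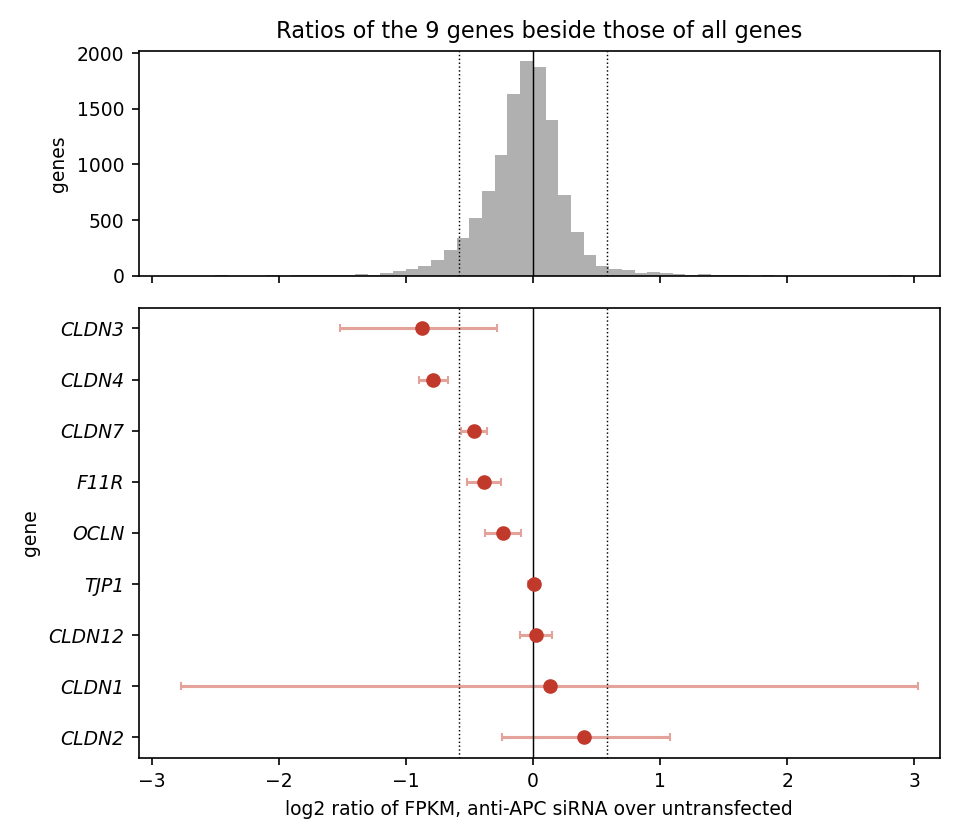
Log2 ratios of FPKM, anti-*APC* over untransfected, for all genes that reached 1 FPKM in both (upper histogram, bins of 0.1) and for each of the 9 genes (lower panel, points with exact 95% counting intervals); dotted lines mark 1.5-fold in either direction. *CLDN3* (−0.87) and *CLDN4* (−0.78) lie left of the lower line, *TJP1* (0.01) and *CLDN12* (0.02) lie at 0, and the interval of *CLDN1* runs from −2.77 to 3.03.

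*CLDN4*, a barrier claudin, had 44.4 FPKM in the untransfected library and 25.8 FPKM in the anti-*APC* library. It was 1.72-fold lower after *APC* silencing, with a log2 ratio of −0.78 (interval −0.90 to −0.67) that rested on at least 1830 and 970.3 reads. The gene (annotated span chr7:73213872-73247020, plus strand) had rank 2403 among expressed rows in untransfected cells and rank 3870 after *APC* silencing. Its measured locus began 60.6 kb past the end of the measured locus of *CLDN3*, inside the annotated span. *CLDN3*, another barrier claudin, lies on the opposite strand (chr7:73183327-73184600) and has a single exon. Its values were 2.40 FPKM and 1.31 FPKM, a 1.83-fold lower level in the anti-*APC* library. Its log2 ratio of −0.87 was the most negative of the 9 genes, but with at least 71.0 and 35.5 reads the interval was wide (−1.52 to −0.29), and with a pseudocount of 1 FPKM the ratio was −0.55 and no longer past 1.5-fold. *CLDN4* exceeded *CLDN3* by 18.5-fold in untransfected cells and by 19.6-fold in the anti-*APC* library. No interval was computed for the change between these ratios, and the few reads of *CLDN3* leave it uncertain.

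*CLDN7*, a claudin that is abundant in the intestine and also found along the lateral membrane, had 70.2 FPKM in untransfected cells and 51.0 FPKM after *APC* silencing. The level was 27.3% lower, with a log2 ratio of −0.46 (interval −0.56 to −0.36). *CLDN7* (chr17:7163222-7167302, minus strand) was 1.58-fold as abundant as *CLDN4* in untransfected cells and 1.98-fold as abundant in the anti-*APC* library. The difference stayed within 1.5-fold.

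*CLDN12*, an atypical claudin whose tail lacks the usual PDZ-binding end, had 11.7 FPKM in untransfected cells and 11.9 FPKM after *APC* silencing. Its log2 ratio was 0.02 (interval −0.10 to 0.15), from at least 1062.8 and 986.9 reads. *CLDN12* (chr7:90013035-90142716, plus strand) was thereby the abundant claudin whose levels in both libraries could not be distinguished beyond counting error.

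*CLDN2*, the channel-forming claudin, had 0.813 FPKM in untransfected cells and 1.07 FPKM in the anti-*APC* library, and it did not pass the minimum of 1 FPKM in both. The ratio was 1.32, with a log2 interval of −0.25 to 1.08 from at least 37.4 and 45.1 reads, so that no difference was detectable at this depth. *CLDN1*, a claudin of the epidermal and intestinal barrier, had 0.0334 FPKM and 0.0366 FPKM. These values correspond to 3.0 reads in each library, and the ratio of 1.10 had an interval of 0.147 to 8.18. *CLDN2* (chrX:106143394-106174091, plus strand) and *CLDN1* (chr3:190023496-190040235, minus strand) were therefore measured, but too thinly to compare.

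**Figure D3:**
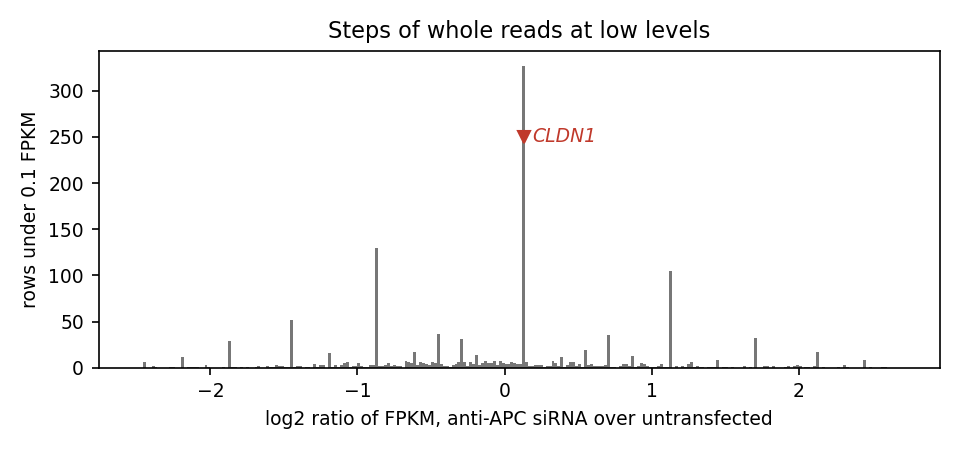
Number of rows under 0.1 FPKM and above 0 in both libraries (y axis) by log2 ratio of FPKM, anti-*APC* over untransfected (x axis, bins of 0.02). The tallest bar holds mostly genes with equal numbers of reads in both libraries, and *CLDN1* (arrowhead, 0.13) lies in that bar. Of all 1425 rows shown here or beyond the axis, 319 lie within 0.005 of 0.13.

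*OCLN* encodes occludin, a membrane protein of the strands that binds ZO-1. It had 11.5 FPKM in untransfected cells and 9.76 FPKM in the anti-*APC* library, a log2 ratio of −0.23 (interval −0.37 to −0.09). *OCLN* (chr5:68788119-68853931, plus strand) has a partial copy annotated on the same chromosome, *OCLNP1*, which has no row in the table. How reads shared by *OCLN* and the copy were assigned is not given in the sources used here, so the *OCLN* levels are uncertain in that respect.

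*F11R* encodes JAM-A, an adhesion molecule of the immunoglobulin superfamily that helps to establish the junction. Its values were 38.2 FPKM in untransfected cells and 29.3 FPKM after *APC* silencing. The level was 1.30-fold lower, with a log2 ratio of −0.38 (interval −0.52 to −0.25) from at least 1099.7 and 769.9 reads. *F11R* (chr1:160965001-160991133, minus strand) lay within 1.5-fold, and its ratio was below the median of all genes.

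*TJP1* encodes ZO-1, the scaffold beneath the strands. It had 57.6 FPKM in untransfected cells and 58.0 FPKM in the anti-*APC* library, a log2 ratio of 0.01 (interval −0.04 to 0.06) from at least 7649.3 and 7027.9 reads. *TJP1* (chr15:29991571-30261118, minus strand) had the narrowest interval of the 9 genes, and no difference was detectable within it. *CLDN7* was 1.22-fold as abundant as *TJP1* in untransfected cells and 0.880-fold as abundant after *APC* silencing. *OCLN* was 0.199-fold as abundant as *TJP1* and then 0.168-fold. The transcripts of *CLDN7* and *OCLN* were thus lower relative to that of *TJP1*, whereas that of *CLDN12* (log2 ratio 0.02) was not.

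The 6 claudins were also set beside the 17 other claudins of the table. The summed level of all 23 claudins was 138 FPKM in untransfected cells and 97.8 FPKM in the anti-*APC* library, or 71.0% of the untransfected sum. *CLDN7* and *CLDN4* together accounted for −37.8 of the difference of −39.9 FPKM. In untransfected cells *CLDN7* made up 50.9% of the sum, *CLDN4* 32.2% and *CLDN12* 8.49%. In the anti-*APC* library the shares were 52.1%, 26.4% and 12.2%, so the share of *CLDN4* was smaller, that of *CLDN12* larger and that of *CLDN7* similar. These 3 genes held 91.6% of the claudin sum in untransfected cells and 90.6% after *APC* silencing, and *CLDN3* held 1.74% and 1.34%.

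Of the 17 other claudins, 2 had at least 1 FPKM in both libraries. *CLDN15*, a channel-forming claudin of the intestine, had 4.78 FPKM in untransfected cells and 3.93 FPKM in the anti-*APC* library (log2 ratio −0.28). *CLDN23* had 1.70 FPKM and 1.04 FPKM, and with a log2 ratio of −0.70 it was past 1.5-fold. The second value lay close to the minimum, and with a pseudocount of 1 FPKM *CLDN23* was no longer past 1.5-fold. *CLDN20* had 0.914 FPKM and 1.07 FPKM, and the other 14 were under 1 FPKM in both libraries, 6 of them at 0 in both.

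**Figure D4:**
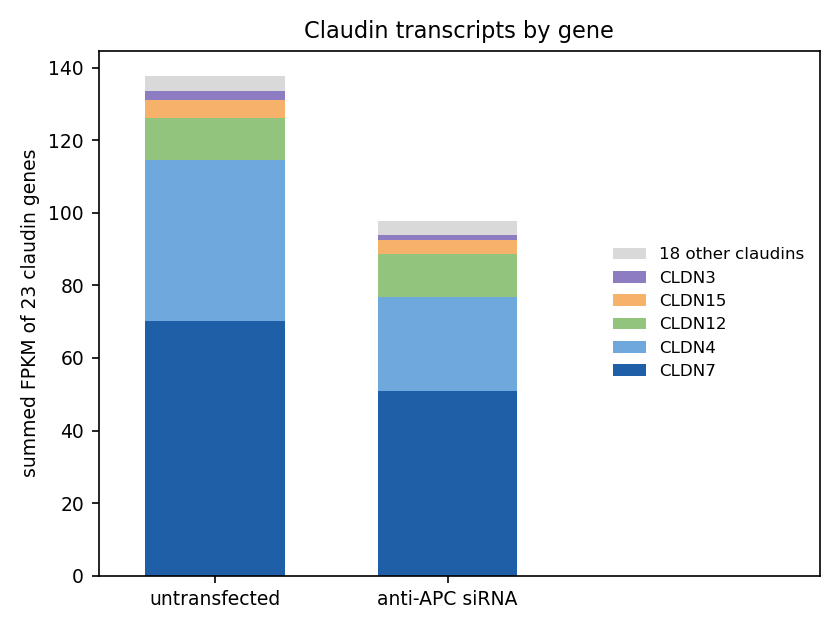
Summed FPKM of 23 claudin genes (y axis, from 0) in the untransfected and the anti-*APC* library, 1 library each, stacked by gene. The sum is 138 in untransfected cells and 97.8 after *APC* silencing, and the *CLDN7* and *CLDN4* segments carry most of the difference.

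Genes at the same loci were examined because it is not stated whether reads were assigned by strand. *CLDN7* shared its table locus with *C17orf81* (*ELP5*), a gene on the opposite strand with which it overlaps by 38 bases. *C17orf81* had 41.0 FPKM in untransfected cells and 40.9 FPKM after *APC* silencing, and the summed FPKM of the pair had a log2 ratio of −0.27. *CLDN12* overlaps *GTPBP10* (7.61 and 8.62 FPKM) and *CDK14* (2.69 and 2.89 FPKM) on the same strand. *CLDN2* overlaps *MORC4* (18.4 and 20.8 FPKM) on the opposite strand, at a level many times its own, and shares its table locus with *RIPPLY1*, which was listed at 0 in both libraries. The levels of *CLDN2* and *CLDN12* are uncertain to the extent that reads of these neighbors were counted with them. No other row lay at *CLDN1*, *CLDN3*, *CLDN4*, *OCLN*, *TJP1* or *F11R*.

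The GC content of transcripts moved with the ratios over all genes, and the values for the 9 genes stand here beside their own ratios. *CLDN3* (69.2% GC), *CLDN4* (60.8%) and *CLDN7* (56.0%) belong to deciles of GC content whose median log2 ratios were −0.24, −0.16 and −0.13. *CLDN12* (37.7%), *OCLN* (38.8%) and *TJP1* (45.0%) belong to deciles with medians of 0.06, 0.06 and 0.01, and *F11R* (46.7%) to a decile with a median of −0.01. The thinly read *CLDN1* (41.3%) and *CLDN2* (52.4%) belong to deciles with medians of 0.04 and −0.10. After subtraction of the median of the decile, the log2 ratio was −0.63 for *CLDN3*, −0.62 for *CLDN4* and −0.33 for *CLDN7*, so the first and the second stayed past 1.5-fold. *F11R* and *OCLN* stood at −0.37 and −0.29 on the same scale, and *CLDN1* and *CLDN2* at 0.09 and 0.50. The lowest decile of mean FPKM, to which *CLDN3* belongs, had a median of −0.18, and subtraction of it left −0.69 for *CLDN3*. The part of GC content or expression level in these ratios was not tested.

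Other genes of the junction were described from lists that hold none of the 9 genes. Of 11 other transmembrane proteins of tight junctions, 6 had at least 1 FPKM in both libraries and none of these was past 1.5-fold, with a median log2 ratio of −0.18. The most abundant were *LSR*, the angulin of tricellular junctions (80.3 FPKM untransfected, 66.5 anti-*APC*), *MARVELD2*, which encodes tricellulin (14.0 and 12.5 FPKM), and the polarity protein *CRB3* (12.1 and 10.6 FPKM). All 3 were lower by less than 1.5-fold.

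Of 19 other plaque proteins, 16 passed the minimum, with a median log2 ratio of −0.01. *TJP3*, which encodes the scaffold ZO-3, had 2.98 FPKM in untransfected cells and 1.52 FPKM in the anti-*APC* library (log2 ratio −0.97) and was the 1 gene lower by 1.5-fold. *MAGI1*, a PDZ scaffold, had 9.99 FPKM and 15.5 FPKM (log2 ratio 0.63) and was the 1 gene higher. The most abundant plaque genes were *CSDA* (*YBX3*, encoding the ZO-1-associated factor ZONAB; 133 and 154 FPKM), *SYMPK* (50.6 and 43.8 FPKM) and *MLLT4* (*AFDN*, encoding afadin; 16.5 and 15.7 FPKM). The values of *TJP1* and *TJP3*, which encode related scaffolds, thus differed in this comparison, although *TJP3* was read at a much lower level.

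Of 13 cell polarity genes, 12 passed and their median log2 ratio was 0.03. *LLGL2*, a basolateral polarity protein, was lower by 1.5-fold (26.8 and 17.1 FPKM, log2 ratio −0.65), and no gene was higher. The small GTPase *CDC42* (127 and 139 FPKM) and *SCRIB* (38.5 and 35.2 FPKM) were the most abundant beside it.

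Of 14 genes of adherens junctions and desmosomes, 13 passed, 3 were lower by 1.5-fold and none was higher, with a median log2 ratio of −0.15. *CDH1*, which encodes E-cadherin, had 19.0 FPKM in untransfected cells and 12.1 FPKM in the anti-*APC* library (log2 ratio −0.65). The desmosomal plaque gene *PKP3* had 25.9 and 16.6 FPKM (−0.64), and *PERP*, a desmosome-associated membrane protein and p53 target, had 42.1 and 25.8 FPKM (−0.70). In contrast, *CTNNB1* (177 and 178 FPKM), *CTNNA1* (123 and 130 FPKM) and *PVRL3* (*NECTIN3*; 98.6 and 133 FPKM), the most abundant of the list, were not lower. *CTNND1* was listed at 0 in both libraries as 1 of 269 rows with a failed estimate, and it was named after its value was seen. Over these lists, the other claudins and a list of 15 transcription factors together, 58 genes passed the minimum, of which 7 were lower and 1 was higher by 1.5-fold. Beside these counts, and those of each list alone, stand 5.76% lower and 2.29% higher among all 11815 genes above the minimum. The lists were chosen with earlier results of these data known.

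**Figure D5:**
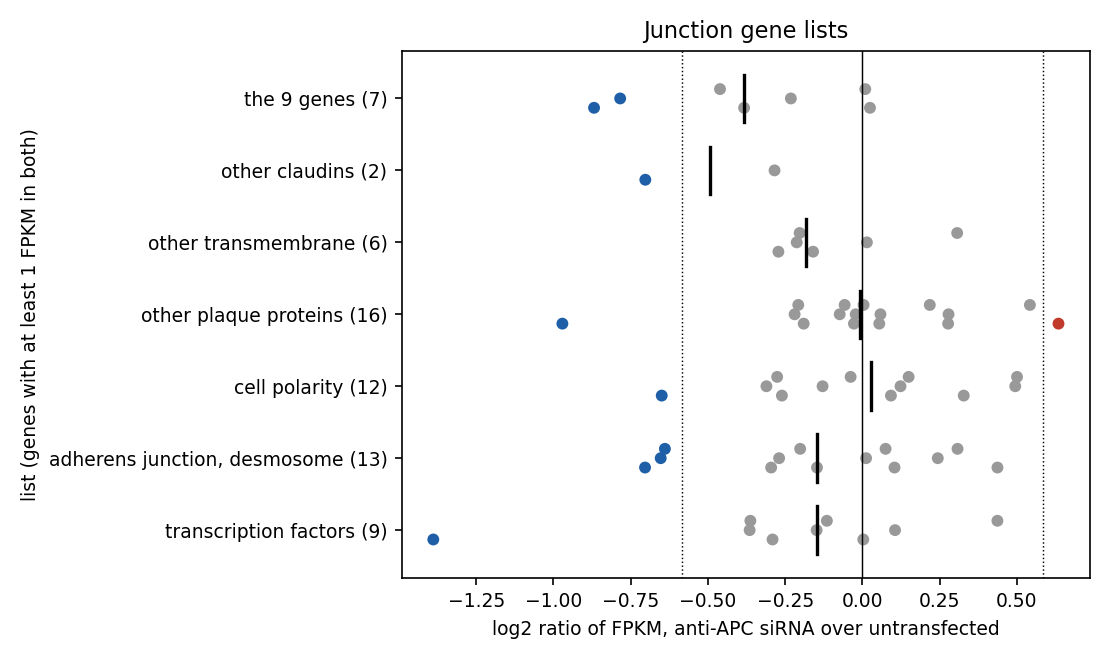
Log2 ratios of FPKM, anti-*APC* over untransfected, for genes that reached 1 FPKM in both (number in brackets) in the 9 genes and in each other list; points past 1.5-fold (dotted lines) are blue where lower and red where higher, and black bars are medians. The medians run from −0.49 for 2 other claudins to 0.03 for cell polarity genes, and *MAGI1* (0.63) is the 1 point past the upper line.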

How the data were processed

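The authors prepared single-read TruSeq libraries, assigned reads with Cufflinks and compared libraries with Cuffdiff, on hg19 per the submitters' processing notes. The aligner and annotation are not given in the sources used here. The paper names a Genome Analyzer II and the labels a HiSeq instrument. The authors deposited FPKM of 2 libraries, anti-*APC* and untransfected, under a file name that says RPKM. Their comparison columns (natural log fold change, test statistic, p, q and a significance call) were not used.

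Log2 ratios of FPKM were computed without a pseudocount or filter. A gene was counted as lower or higher at 1.5-fold or more with at least 1 FPKM in both libraries. With 1 library per condition there was no test. Rows under 0.1 FPKM gave the ratio of single reads, and single-exon genes the FPKM of 1 read per kilobase (0.0362 untransfected, 0.0396 anti-*APC*) after 205 bases were taken off each transcript. Of 89 single-exon values of up to 8 reads, 82.0% lay within 0.05 of a whole read. Exact Clopper-Pearson intervals used the shortest GENCODE 44 transcript with a CCDS identifier, on GRCh37. The steps were tested on simulated data. GC content and length came from MANE Select transcripts, known for 81.8% of genes above that minimum.

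The genes and lists were chosen with earlier results of these data known. Named were the 9 genes, *APC*, *AXIN2*, genes at the same loci and, of each other list, up to 5 genes per direction past 1.5-fold and the 3 most abundant in untransfected cells. Some others were named after their values were seen. Alternatives were other folds, minimums, pseudocounts and scalings, and, chosen after the data were seen, subtraction of medians by decile of GC content, length or mean FPKM. Protein sequences were not analysed here. The tools were scipy 1.17.1, pandas 2.3.3, numpy 2.4.6 and matplotlib 3.10.9 under Python 3.11.15.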

Additional observations from a re-analysis of the deposited data

How the results depend on the processing

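No paired analysis was possible because each condition has 1 library. Without replicates, no ratio can be set against the spread between cultures, and depth limits *CLDN1* and *CLDN2* most. Of 63 alternative values for the ratios of the 9 genes, 59 moved by less than 0.5 of the counting interval's width. *CLDN12* and *TJP1*, which stood at 0.02 and 0.01, were −0.04 and −0.0024 by decile of GC content. The other 4 were *CLDN4* at −0.62 and *CLDN7* at −0.33 by decile of GC content, *CLDN7* at −0.36 by decile of length, and *TJP1* at 0.060 after median centring, which subtracts −0.05.

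The count of lower genes among the 9 was 4 at a smaller fold (0.32 on the log2 scale), 0 at 2-fold, 1 with a minimum of 5 FPKM and 1 with a pseudocount of 1 FPKM, which leaves *CLDN4* alone. In the other lists together, the count of lower genes was 1 at 2-fold, 11 with a minimum of 0.1 FPKM and 13 with none, and that of higher genes was 7 at the smaller fold, 0 at 2-fold, 5 with a minimum of 0.1 FPKM, 6 with none and 2 after median centring. Over all genes, the share lower was 17.5% at the smaller fold, 1.02% at 2-fold, 9.68% with a minimum of 0.1 FPKM, 3.2% with 5 FPKM, 12.8% with none and 3.50% with a pseudocount of 1 FPKM. The share higher was 6.86% at the smaller fold, 0.745% at 2-fold, 3.84% with a minimum of 0.1 FPKM and 6.65% with none.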

Other observations

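Of 15 transcription factors known to act on claudin, occludin or epithelial genes, 9 had at least 1 FPKM in both libraries, with a median log2 ratio (anti-*APC* over untransfected) of −0.15. *ELF3*, an epithelial ETS factor, had 23.3 FPKM in untransfected cells and 8.90 FPKM in the anti-*APC* library and was 2.62-fold lower, the only one of the 9 past 1.5-fold. *KLF4*, a factor of differentiated gut epithelium, had 17.8 and 16.1 FPKM, and *SNAI1*, a repressor of *CDH1* and claudins, had 8.12 and 8.73 FPKM. Each was within 1.5-fold.

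The simple-epithelial keratins were also lower in the anti-*APC* library by less than 1.5-fold. *KRT8* had 588 and 478 FPKM, *KRT18* 461 and 337 FPKM and *KRT19* 384 and 289 FPKM, and the adhesion molecule *EPCAM* had 190 and 170 FPKM. With *CDH1*, the 5 epithelial markers above 1 FPKM had a median log2 ratio of −0.41, beside −0.38 for the 7 tight junction genes and −0.05 for all genes.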
